A study of Drosophila melanogaster with 19 samples.

Results

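The 72 genes described here encode proteins of the Drosophila mitochondrial ribosome. They are the genes whose symbol starts with mRpL (46 genes, named for the large subunit) or mRpS (26 genes, named for the small subunit) among the 12013 transcripts with a symbol in the table of Armitage mutants, 1 transcript a gene. The choice used names only and no measured value. Every one of the 72 was found in all 5 deposited tables, so none was lost on the way. The whole tables of untreated cells and of Zuc knockdown hold 13929 transcripts.

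Mitochondria carry their own ribosome, which translates the few membrane subunits of the respiratory chain and ATP synthase that the mitochondrial genome still encodes. Its RNAs come from that genome, but all of its proteins come from nuclear genes, are made on cytosolic ribosomes and are imported. Part of these proteins descend from those of bacterial ribosomes and keep the bacterial numbering, and the others were added in the mitochondrial lineage. Of the 72, 42 carry numbers within the bacterial series (up to L36 or S21) and 30 carry higher numbers. The letter in a name is not always the place in the ribosome: in mammalian structures the proteins of the S30 and S18A genes lie in the large subunit.

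The cells were ovarian somatic cells (OSC), a Drosophila line from the follicle cell lineage of the ovary, where PIWI-interacting RNAs (piRNAs) act through the protein Piwi. The helicase Armitage (Armi) binds long piRNA precursors, Yb (encoded by fs(1)Yb) is its partner in this pathway, and the endonuclease Zucchini (Zuc) cuts the precursors. RNA crosslinked to Myc-tagged Armi was read by iCLIP in cells transfected with the substitution D862A, the substitution R949A or wild-type (WT) Armi. Endogenous Armi was read by iCLIP after Yb knockdown (KD) and after control KD against EGFP, and in untreated cells (2 libraries). CLIPPARE, in which an adapter is joined to the 5′ ends of Armi-bound RNA before RNase digestion, was done after Zuc KD and control KD (2 libraries each). Small RNA bound to Piwi was read in a library labelled Yb KD, in a control KD library and in untreated cells (1 library each). The labels list 2 libraries a condition for the Myc-Armi and the KD iCLIP, but the tables give 1 column a condition, so no spread between libraries can be had there. They do not say whether endogenous Armi was removed from the transfected cells.

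Values are RPM, reads per M of the library's total, where M stands for mega. Each value was a whole number of reads, and the implied totals lay between 0.813 M for the control KD Piwi library and 10.4 M for the control KD iCLIP. The tables measure RNA bound to Armi or Piwi and no table measures total RNA, so more binding and more mRNA cannot be told apart, nor can fewer cells of a type and less RNA per cell. The transcript of fs(1)Yb had 23.8 RPM in Yb KD iCLIP and 269 RPM in control KD iCLIP, but 44.5 and 29.5 RPM in the Piwi libraries labelled Yb KD and control KD. The transcript of zuc had 0.343 and 2.10 RPM in Zuc KD and 1.15 and 3.72 RPM in control KD CLIPPARE, which overlap. The transcript of armi had 5157 RPM in D862A, 3951 RPM in R949A and 5235 RPM in WT. Of the follicle cell markers, tj had 3040 and 2754 RPM and zfh1 114 and 122 RPM in untreated Armi iCLIP, while Fas3 had 4.59 and 3.25 RPM there. The germline markers nos, osk, aub and bam stayed between 0 and 5.66 RPM in all columns. In untreated Armi iCLIP the highest of them was bam, at 2.58 and 1.46 RPM, below Fas3. In control KD iCLIP bam, at 5.66 RPM, stood above Fas3, at 3.55 RPM.

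In untreated cells the mitochondrial ribosomal protein mRNAs were weakly bound. Together they had 109 RPM in the Piwi library, against 109 and 100 RPM in the Armi iCLIP libraries, which is 0.0823% and 0.0643% and 0.0636% of the RPM of transcripts with a symbol. The median gene had 0.559 RPM in the Piwi library, against 0.932 and 0.673 RPM in the Armi libraries. The deposited tables sort transcripts by piRNA level into the classes High, Middle, Low and Zero, and 54 members were in Low, 18 in Zero and 0 in High or Middle. The 18 genes of the Zero class, and no other member, had 0 reads in the untreated Piwi library, where 3 reads would be 1.68 RPM. The class thus follows that library, and its 0 reads are not a separate result.

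A few members held much of this signal. mRpS30 had 6.14 RPM in the Piwi library and 18.5 and 19.2 RPM in the Armi libraries, the highest Armi values of the 72. mRpL21 had 18.4 RPM in the Piwi library and 14.2 and 16.5 RPM in the Armi libraries. The first of these mRNAs was thus low in Piwi for its Armi level, and the second was at a like level in both. The next by Armi level were mRpS5 (2.79 RPM in Piwi, 5.59 and 7.18 RPM in Armi) and mRpL37 (3.91 RPM in Piwi, 5.59 and 4.71 RPM in Armi). mRpS7, with 5.45 and 3.48 RPM on Armi, had 0 in the Piwi library. mRpS17, mRpL45, mRpL39, mRpL15 and mRpL17 followed, with means over the Armi libraries of 3.04, 2.54, 2.40, 2.11 and 2.10 RPM.

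Levels of different genes can be set side by side only per length, and the files give the span of the locus, introns included. Per kb of span the untreated Armi level was highest for mRpL21, at 18.6 RPM per kb, then for mRpS30, at 9.48 RPM per kb. The median member stood at 0.859 RPM per kb. The spans ran between 0.345 and 13.4 kb with a median of 0.849 kb, so most are short loci.

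Set against each other, the Piwi and Armi levels of the 72 genes were close. The median log2(RPM + 1) of Piwi minus that of Armi, called a log2 ratio from here on, was 0.08, while it was −0.66 over the 3189 transcripts that averaged 5 RPM or more. Since most members lie below that level, the like comparison is with 1714 other transcripts at the same levels (0.385 to 1.54 RPM), whose median was 0.12. Of the 72, 6 were past 2-fold higher in Piwi, against 8.98% of all transcripts with a read and 13.3% of those within the members' untreated Armi range of 0.308 to 1.20 RPM. Past 2-fold lower were 5, against 20.9% of all and 3.72% of that range. The summed ratio was 1.04, with an exact 95% interval of 0.897 to 1.21; such intervals cover counting error only. Cytosolic ribosomal protein mRNAs, of which 89 transcripts were matched, had a median log2 ratio of −1.41, and the 63 subunits of oxidative phosphorylation one of −0.47. mRpS30 had a ratio of 0.326 (0.161 to 0.591) and mRpL21 one of 1.20 (0.802 to 1.72).

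**Figure D1:**
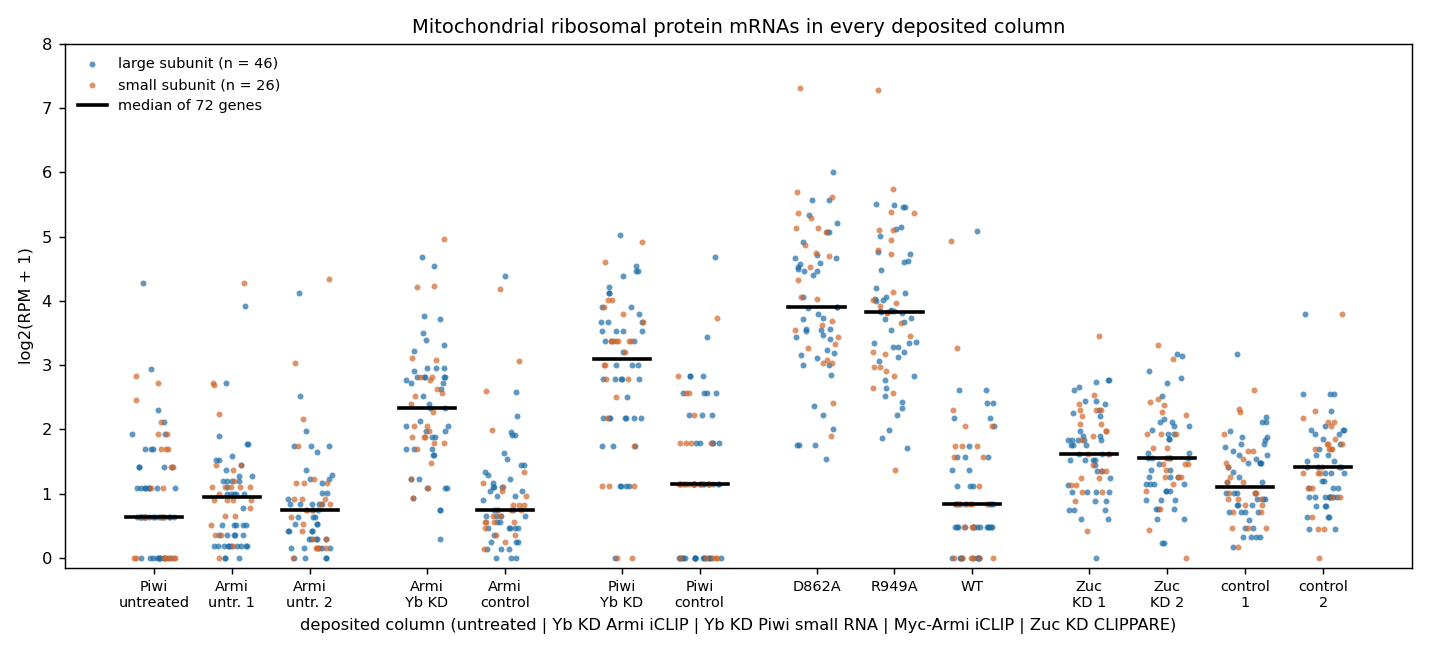
Each point is 1 of the 72 mitochondrial ribosomal protein mRNAs, as log2(RPM + 1) on the vertical axis, in each of the 14 deposited columns, coloured by the subunit in its name, with the median as a black line. The median stands at 13.9 RPM in D862A and 13.2 RPM in R949A, against 0.786 RPM in WT, and the shift in Yb KD is smaller.

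The largest differences of the group were between the Armi substitutions and WT. The summed RPM of the 72 was 1471 in D862A and 1326 in R949A, against 154 in WT. The median gene had 13.9 RPM in D862A, 13.2 RPM in R949A and 0.786 RPM in WT. No member was at 0 in either substitution column, while 15 were at 0 in WT, where 1 read is 0.393 RPM. The 72 made up 0.232% of the symbol RPM in D862A, 0.208% in R949A and 0.0464% in WT.

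All 72 members had more RPM in D862A than in WT. Their summed ratio was 9.55 (8.63 to 10.6), while the sum over the whole table was 1.91 times that of WT. Past 2-fold higher were 69 of the 72, against 60.4% of all transcripts with a read and 67% of those within the members' untreated Armi range. No member was past 2-fold lower, against 5.91% of all. The median log2 ratio was 3.00, and 63 members lay above the median of 1.73 over 4585 transcripts averaging 5 RPM or more. For R949A the summed ratio was 8.61 (7.78 to 9.56), again with all 72 above WT and a table sum of 1.92 times WT. Past 2-fold higher in R949A were 69 of the 72, against 60.4% of all and 65.7% of the untreated range, and 0 were past 2-fold lower, against 6.32%. Its median log2 ratio was 2.86, with 63 members above the table's 1.68. Both substitution columns are set against the same WT column, so the 2 comparisons are not independent.

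By median these ratios were above those of other transcripts of like RPM and, by less, above those of other short loci. The summed ratios of the members were near those of the short loci. The 1495 other transcripts with the members' mean level in D862A and WT (4.56 to 14.4 RPM) had a median log2 ratio of 2.11, and the 1334 in the R949A comparison (4.32 to 12.6 RPM) had 2.06. The 244 other transcripts with both the members' span (0.689 to 1.17 kb) and their untreated Armi RPM had a median of 2.57 in D862A and 2.36 in R949A, and summed ratios of 10.3 and 9.09. Transcripts of the same untreated RPM with a locus over 10 kb had medians of 0.85 and 0.78 (93 and 92 transcripts). The part of locus length in the members' ratios was not tested further. The spread between libraries, which the joined columns do not show, also limits these ratios.

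The members of highest D862A level show how unevenly the WT signal was spread. mRpS5, a small-subunit protein with a bacterial counterpart, had 159 RPM in D862A and 156 RPM in R949A, against 29.5 RPM in WT. mRpL12, the counterpart of the bacterial stalk protein that recruits translation factors, had 63.3 RPM in D862A and 44.6 RPM in R949A, against 1.96 RPM in WT. mRpS7, a protein of the small-subunit head in bacteria, had 50.7 and 33.3 RPM in D862A and R949A, against 3.14 RPM in WT. In each of these WT stood below both substitution columns, and for mRpL12 and mRpS7 D862A also stood above R949A (1.42-fold, 1.21 to 1.67, and 1.52-fold, 1.27 to 1.83). Without mRpS5 and mRpL21 the group had 1266 RPM in D862A and 1128 RPM in R949A, against 91.6 RPM in WT, and the summed ratios were 13.8 and 12.3.

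On the log2(RPM + 1) scale, mRpS34, a protein with no bacterial counterpart, had the highest ratio in both substitutions (4.79 in D862A and 4.55 in R949A). It had 48.3 RPM in D862A and 40.9 RPM in R949A, against 0.786 RPM or 2 reads in WT. The ratio of RPM was 61.4 (16.9 to 510) in D862A and 52.0 (14.2 to 432) in R949A, and the width of these intervals comes from the few WT reads. mRpS23 had 34.1 RPM in D862A and 0.786 RPM in WT (43.4-fold, 11.9 to 361). mRpS21 had 29.8 RPM in R949A and 0.786 RPM in WT (37.9-fold, 10.3 to 316).

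Members without a WT read have no ratio, so their RPM was divided by that of 3 reads in the WT column. mRpL19, at 21.04 RPM in D862A, stood at 17.8 times that level. In R949A, mRpS28 at 16.7 RPM stood at 14.1 times it and mRpL46 at 15.3 RPM at 12.9 times it. Counting error is not part of these quotients. In all, 48 of the 72 had 3 or fewer reads in WT, so the order among large ratios is not resolved. The 18 Zero-class members had 319 RPM in D862A and 256 RPM in R949A, against 9.43 RPM in WT, a summed ratio of 33.8 (22.7 to 53.0) and 27.1 (18.1 to 42.4). For the 54 Low-class members, which include mRpS5 and mRpL21, it was 7.97 (7.17 to 8.87) in D862A and 7.41 (6.66 to 8.25) in R949A. By median log2 ratio the Zero and Low classes stood at 3.48 and 2.72 in D862A and at 2.92 and 2.86 in R949A, so they were close in R949A.

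Among members averaging 5 RPM or more, mRpL21, the member of highest WT level, had the smallest ratio in both substitutions. It had 46.5 RPM in D862A and 43.3 RPM in R949A, against 33.0 RPM in WT, a ratio of 1.41 (1.10 to 1.82) and 1.31 (1.02 to 1.70). Its log2 ratio of 0.48 in D862A and 0.38 in R949A lay below the table medians, and it was under 2-fold in both. mRpS30 had 32.5 RPM in D862A, against 8.64 RPM in WT (3.76-fold, 2.42 to 6.13). mRpS22 had 11.3 RPM in D862A and 11.6 RPM in R949A, against 3.14 RPM in WT (3.60-fold and 3.68-fold). mRpL20 had 9.56 RPM in D862A and 2.36 RPM in WT (4.06-fold, 1.76 to 11.5), and mRpL17 had 15.1 RPM in R949A and 5.11 RPM in WT (2.95-fold, 1.64 to 5.77). Also under 2-fold on the log2(RPM + 1) scale were mRpS14 in both, mRpL43 in D862A and mRpS9 in R949A.

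**Figure D2:**
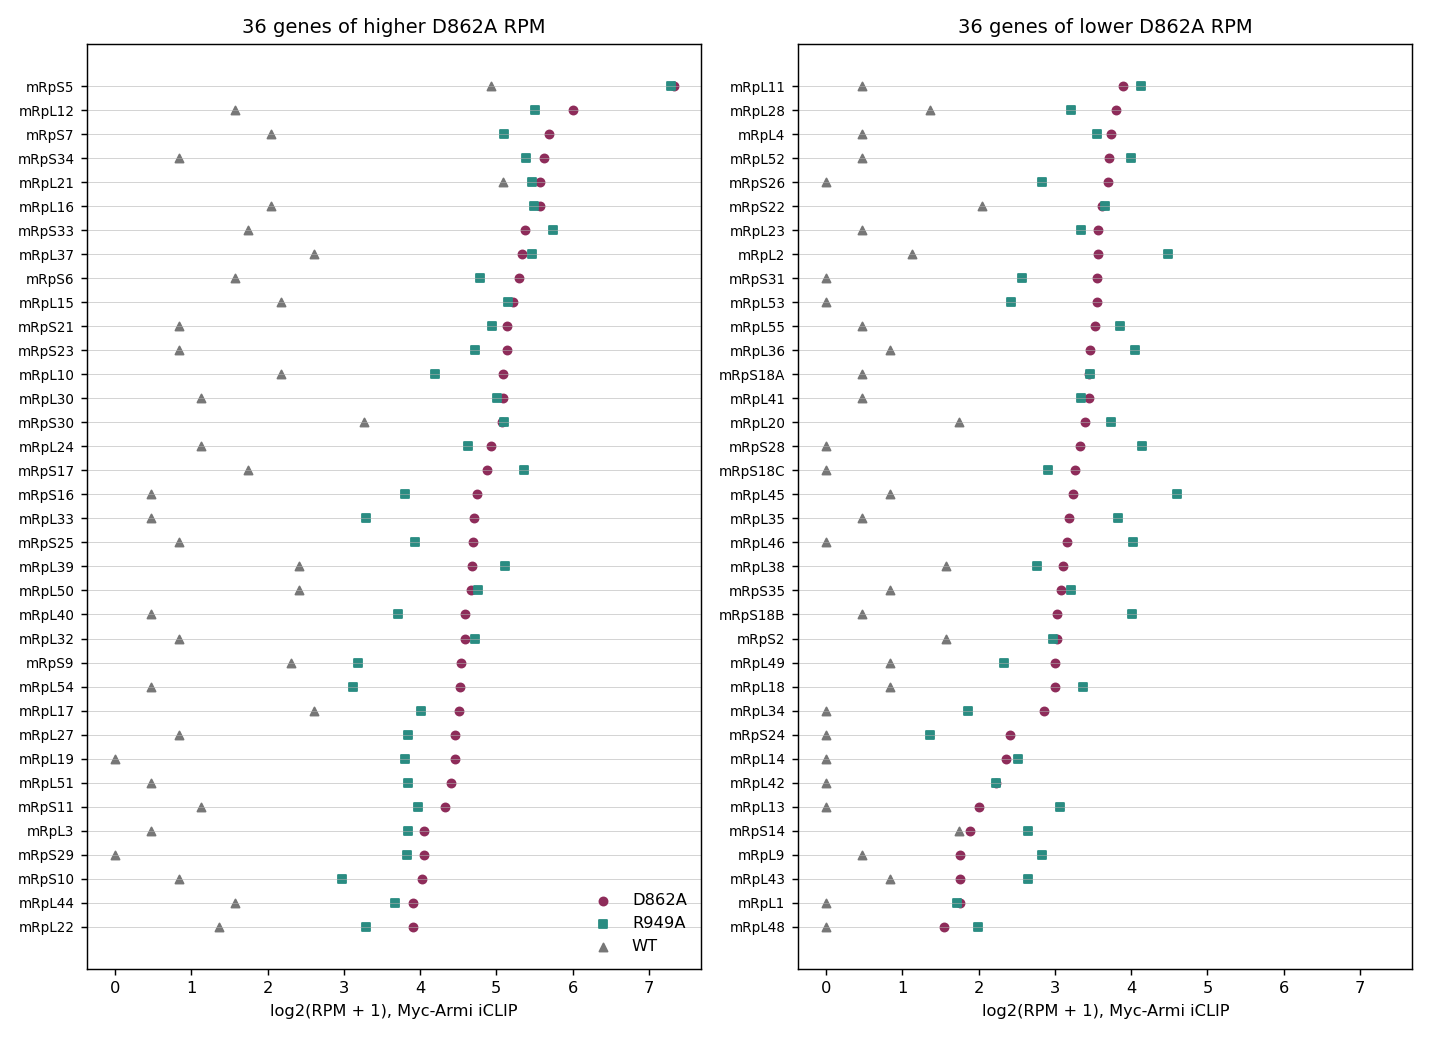
Each row is 1 gene, sorted by its RPM in D862A, with log2(RPM + 1) in D862A (circles), R949A (squares) and WT (triangles) on the horizontal axis. The WT value is left of both others in all 72 rows, least so for mRpL21 and mRpS14, and mRpS5 stands apart at 159 RPM in D862A.

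The substitutions differed less from each other than from WT. The summed ratio of D862A to R949A was 1.11 (1.08 to 1.14), and the median log2 ratio was 0.10 over the members and 0.02 over 4963 transcripts of the table. Of the 72, 43 had more RPM in D862A and 29 more in R949A. Past 2-fold higher in D862A were 6 (7.04% of all transcripts with a read) and past 2-fold lower 3 (5.48% of all), so the shares were near the table's. The levels of the 72 genes in both columns had a Spearman correlation of 0.79, a description over genes that share span and untreated level.

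Single members did part between the columns by more than counting error. mRpL33 had 25.2 RPM in D862A and 8.77 RPM in R949A (2.87-fold, 2.08 to 4.03), and mRpL54 had 21.99 and 7.72 RPM (2.85-fold, 2.02 to 4.10). On the other side, mRpL45, which in mammals lies where the ribosome meets the inner membrane, had 8.45 RPM in D862A and 23.3 RPM in R949A (0.362-fold, 0.258 to 0.501). mRpL13 had 3.03 and 7.37 RPM in D862A and R949A, mRpS18B 7.17 and 15.1 RPM, and mRpL2 10.8 and 21.4 RPM. The intervals left out equality for 24 of the 72 members higher in D862A, against 28.1% of 1348 other transcripts of like RPM, and for 14 lower, against 18.2%. These shares were near those of the other transcripts, and with 1 column each the spread between libraries is unknown.

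2 further genes of high D862A over R949A ratio share their locus with another gene. mRpL53 (10.7 RPM in D862A, 4.39 RPM in R949A) lies within AGO1, a High-class gene with 215 and 198 RPM in untreated Armi iCLIP, where mRpL53 had 0 and 0.112 RPM. mRpS9 (22.2 RPM in D862A, 8.07 RPM in R949A) overlaps ArgRS-m and wtrw. Of all 72 members, 42 overlap another annotated gene, 1 of them a High-class gene and 3 a Middle-class gene, and whether the counts used strand is not given in the sources used here. The 30 others had a median log2 ratio of 3.09 in D862A and 2.92 in R949A over WT, near those of all 72.

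Other mitochondrial genes and the cytosolic ribosomal proteins place these ratios. The mRNAs of tko and bonsai, which encode mitochondrial ribosomal proteins under other names, had 31.9 and 13.7 RPM in D862A and 20.9 and 15.8 RPM in R949A, against 1.57 and 0.786 RPM in WT. Subunits of oxidative phosphorylation (63 transcripts) had a median log2 ratio of 2.93 in D862A and 2.68 in R949A, with 57 and 56 past 2-fold higher. CG1746, a subunit of this group, had 793 RPM in D862A and 758 RPM in R949A, against 189 RPM in WT. Cytosolic ribosomal proteins (89 transcripts) had medians of 3.24 and 2.87, and RpL41 had 1232 RPM in D862A and 1327 RPM in R949A, against 372 RPM in WT. By median log2 ratio the mitochondrial ribosomal proteins, with 3.00 and 2.86, thus stood among these groups. By summed ratio they stood higher, at 9.55 in D862A and 8.61 in R949A. Oxidative phosphorylation subunits had 5.81 and 5.27, and cytosolic ribosomal proteins 7.78 and 6.46. Above the members were tko and bonsai together, at 19.3 and 15.6.

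Of the groups that work beside the mitochondrial ribosome, the translation factors, mtDNA genes and tRNA synthetases had smaller median log2 ratios. The protein import machinery (17 transcripts) had medians of 2.47 in D862A and 2.60 in R949A, with the mitochondrial chaperone Hsc70-5 at 355 and 349 RPM, against 173 RPM in WT. Of these 17, 13 were above WT in D862A and 12 in R949A, and 0 were below. The rest had no read in either column and lower both medians, so import cannot be placed below the members. For the 7 mitochondrial translation factors found the medians were 2.06 and 2.29. The 11 genes of mtDNA maintenance and expression had 1.85 and 1.70, with bsf, a mitochondrial RNA-binding protein, at 32.2 and 32.6 RPM, against 29.1 RPM in WT. The 13 mitochondrial tRNA synthetases had 0.94 and 0.88, with 6 past 2-fold in each, below the table medians of 1.73 and 1.68. Only 51 of the 72 members reached a mean of 5 RPM in the D862A comparison and 48 in that of R949A.

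**Figure D3:**
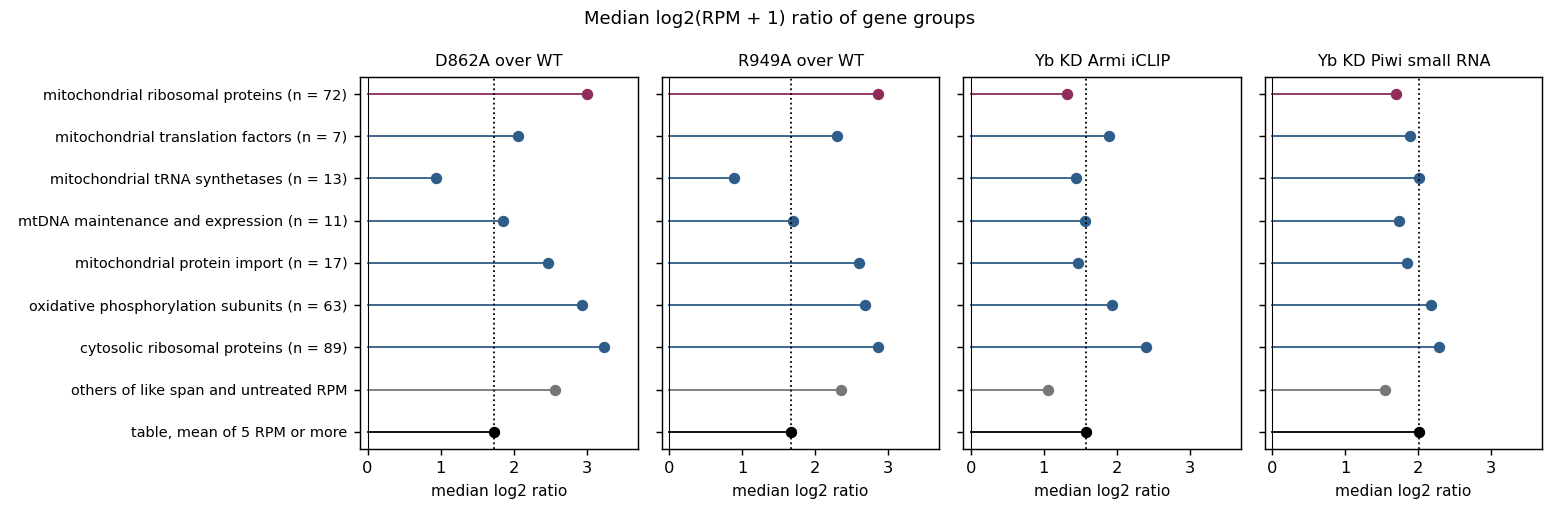
Each panel is 1 comparison and each row a gene group, with the group's median log2(RPM + 1) ratio on the horizontal axis. Grey marks other transcripts of the members' span and untreated RPM, and black and the dotted line mark the median of table transcripts averaging 5 RPM or more. The mitochondrial ribosomal proteins lie at 3.00 and 2.86 in D862A and R949A, right of the dotted line, and at 1.32 and 1.69 in the Yb KD comparisons, left of it.

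Knockdown of Yb also went with more mitochondrial ribosomal protein mRNA on Armi, as it did for most transcripts with a read. The 72 together had 397 RPM in Yb KD and 114 RPM in control KD, a ratio of 3.48 (3.23 to 3.75). The sum over the whole table was 1.67 times that of control KD, and that over the other transcripts of like RPM, given below, 3.51 times. The 72 made up 0.116% of the symbol RPM in Yb KD and 0.0556% in control KD. The median gene had 4.05 RPM in Yb KD and 0.671 RPM in control KD. Higher in Yb KD were 70 of the 72, and 55 were past 2-fold higher, against 52.5% of all transcripts with a read and 54.6% of those in the members' untreated range. None was past 2-fold lower, against 3.22% of all. The median log2 ratio was 1.32, below the 1.58 of 4039 transcripts averaging 5 RPM or more and near the 1.30 of 1091 others of like RPM (1.32 to 3.76). The 261 others of like span and untreated RPM had a median of 1.06. Oxidative phosphorylation subunits had 1.93 and cytosolic ribosomal proteins 2.40.

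Of the 72, 11 averaged 5 RPM or more over Yb KD and control KD. That mean includes Yb KD, so a member low in control KD is among them only if it is high in Yb KD. Among these 11, the largest ratios were those of 4 large-subunit proteins. mRpL39 had 22.3 RPM in Yb KD and 2.11 RPM in control KD (10.6-fold, 6.60 to 17.6). mRpL3, which in bacteria lies near the peptidyl transferase centre, had 8.998 RPM in Yb KD and 1.15 RPM in control KD (7.82-fold, 4.02 to 16.4). mRpL45 had 9.45 and 1.73 RPM (5.47-fold, 3.08 to 10.1) and mRpL37 24.7 and 4.99 RPM (4.96-fold, 3.54 to 7.04) in Yb KD and control KD. The smaller ratios at this level, apart from mRpL21, were those of 3 proteins named for the small subunit. Over all 72 the median log2 ratios were closer, 1.41 for large-subunit and 1.23 for small-subunit names, so the 11 show no contrast of subunits. mRpS5 had 17.5 RPM in Yb KD and 7.38 RPM in control KD, mRpS17 had 7.65 and 2.97 RPM, and mRpS30 had 30.1 and 17.3 RPM (1.75-fold, 1.39 to 2.20).

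mRpL21 went the other way. It had 10.3 RPM in Yb KD and 19.9 RPM in control KD, a ratio of 0.519 (0.368 to 0.717), and was the only one of the 72 whose interval lay below 1. The other member below its control, mRpL40, had 1 read in Yb KD and 7 in control KD. For scale, tj, a follicle cell gene of the High class, had 1170 RPM in Yb KD and 4510 RPM in control KD.

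The Piwi libraries gave a like picture on few reads, 545 over the 72 genes in the library labelled Yb KD and 137 in control KD. The summed RPM was 639 in Yb KD and 169 in control KD, a ratio of 3.79 (3.14 to 4.60). Over the whole table the sum was 2.95 times that of control KD, and over the others of like RPM, given below, 3.41 times. The median gene had 7.62 RPM in Yb KD and 1.23 RPM, or 1 read, in control KD. Of the 72, 64 were higher and 7 lower in Yb KD, and 53 were past 2-fold higher, against 74.6% of all transcripts with a read and 74.1% of those in the members' untreated range. Past 2-fold lower were 3, against 7.62% of all. The share past 2-fold higher was thus near the background, and the median log2 ratio of 1.69 lay below the 2.00 of 4924 transcripts and above the 1.41 of 1794 others of like RPM (1.79 to 7.74).

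The members at the ends of the Piwi comparison rest on few reads. mRpL37 had 31.6 RPM in Yb KD and 2.46 RPM in control KD (12.9-fold, 3.23 to 112), and mRpL38 had 21.1 and 1.23 RPM (17.1-fold, 2.71 to 714). mRpL11, the counterpart of a bacterial stalk-base protein, had 14.1 RPM in Yb KD and 0 in control KD (3.81 times the level of 3 reads). mRpL39 had 10.5 RPM and 0 (2.86 times that level). Counting error is not part of these quotients. These genes stood above the table median. Each of them averaged 5 RPM or more only through Yb KD, so a high ratio was built into that choice. mRpL21 had 11.7 RPM in Yb KD and 24.6 RPM in control KD, 10 and 20 reads, a ratio of 0.476 (0.199 to 1.07). For mRpL22, mRpL49 and mRpL28 the ratios of 1.14, 1.19 and 1.19 had intervals on both sides of 1.

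Over both assays of Yb KD, 63 members were higher in each and 1, mRpL21, was lower in each. Past 2-fold higher in both were 41 of the 72, which is 41 of the 55 of Armi iCLIP and of the 53 of Piwi. Among all transcripts with a read in both assays 54.6% were past 2-fold in both, and 49.7% of those in the members' untreated range, so the members' share was near the background. The sizes of the log2 ratios in both assays had a Spearman correlation of 0.11 over the 72, with the counting error of the Piwi libraries in it. Among members averaging 5 RPM or more in the assay, mRpL37 and mRpL39 were within the 4 largest log2 ratios of each. Both reach that mean only through Yb KD, since their control KD values lay below 5 RPM.

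**Figure D4:**
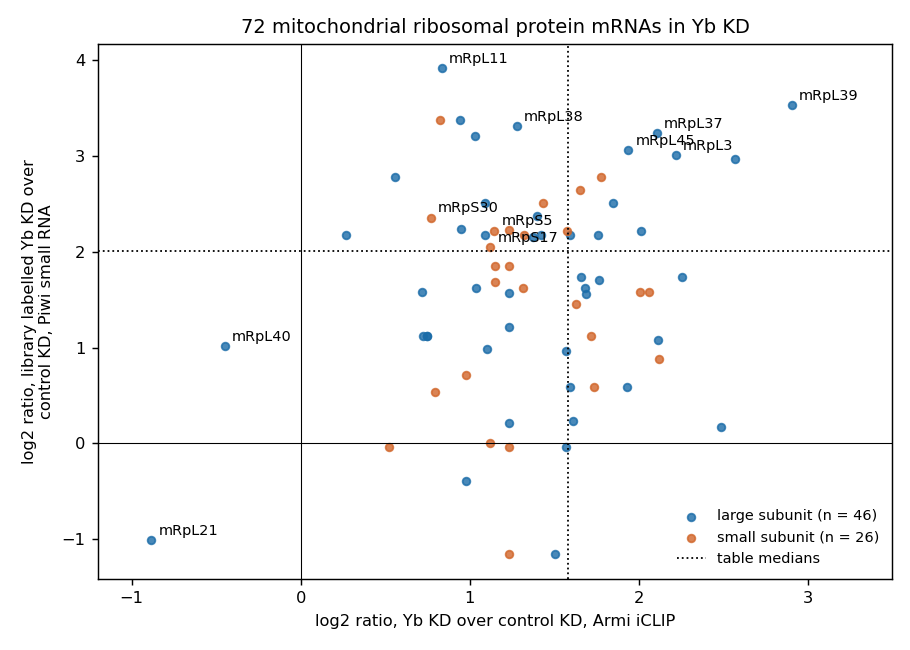
Each point is 1 of the 72 genes, with its log2(RPM + 1) ratio of Yb KD over control KD in Armi iCLIP on the horizontal and in Piwi small RNA on the vertical axis. Dotted lines mark the table medians of 1.58 and 2.00, and mRpL21 is the 1 point below 0 on both axes.

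In Zuc KD the 5′ ends of these mRNAs on Armi were measured with 2 libraries a group, and no member passed the test. The 72 together had 180 and 174 RPM in Zuc KD, against 112 and 154 RPM in control KD, groups that do not overlap. The control libraries differed more from each other than the Zuc KD libraries did, over all transcripts as well (a chi-square per degree of freedom of 7.98 between the control and 2.26 between the Zuc KD libraries). The median log2 change was 0.34 over the 72 and 0.33 over 4006 transcripts averaging 5 RPM or more. It was 0.29 over 1090 others of like RPM, so by median the group moved as the table did. The summed ratio was 1.33 over the 72 and 1.36 over those others, while it was 0.999 over the whole table. Only mRpL21 and mRpS30 averaged 5 RPM or more. Fitted with limma on log2(RPM + 1), 0 of these 2 were called higher (11.8% of all transcripts tested) and 0 lower (2.77%) at an adjusted p of 0.05. At an unadjusted p of 0.05, 1 passed, against 30.5% of all transcripts tested. With no filter 0 of the 72 were called, against 0.446% of 9856 transcripts higher and 0.0101% lower. Of the 72, 8 then had an unadjusted p under 0.05, against 18% of all.

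mRpL21 had 3.77 and 8.06 RPM in Zuc KD, against 8.06 and 12.8 RPM in control KD. The higher Zuc KD library nearly met the lower control library. Its log2 change was −0.77 with a standard error of 0.36 and a limma adjusted p of 0.131. It was called lower by edgeR's quasi-likelihood test on the recovered reads, with a log2 change of −1.09 and an adjusted p of 0.0302 (13.7% of all transcripts were called lower there), and not by DESeq2 (adjusted p 0.0656). It was also called lower by limma with each library centred on its median (14.2% called lower) and without the first control library (15.7% called lower). mRpS30 had 9.95 and 8.93 RPM in Zuc KD, against 5.12 and 12.8 RPM in control KD, with a log2 change of 0.18 and a limma adjusted p of 0.752. It was called higher without the second control library, in which it was highest (44.8% of all transcripts were called higher there).

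The other members averaged below 5 RPM over both groups and are given as values. mRpS18A had 2.57 and 1.23 RPM in Zuc KD, against 0.128 and 0.372 RPM in control KD. mRpL38 had 5.83 and 7.88 RPM in Zuc KD, against 3.32 and 2.05 RPM in control KD. mRpS9 (2.74 and 4.38 RPM, against 1.02 and 1.49 RPM) and mRpS31 (3.94 and 3.85 RPM, against 0.767 and 2.42 RPM) were likewise above control in both Zuc KD libraries. At the low end, mRpS10 had 1.03 and 1.40 RPM in Zuc KD, against 2.17 and 3.16 RPM in control KD. mRpL49 had 1.20 and 1.23 RPM in Zuc KD, against 1.79 and 2.42 RPM in control KD, and mRpL53 had 0.515 and 0.175 RPM, against 0.895 and 0.930 RPM. Among the 71 members with at least 10 reads, 27 had both Zuc KD libraries above both control libraries, against 43.6% of all such transcripts, and 7 had both below, against 10.6%. Those shares, 38.0% and 9.86%, are near the background.

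**Figure D5:**
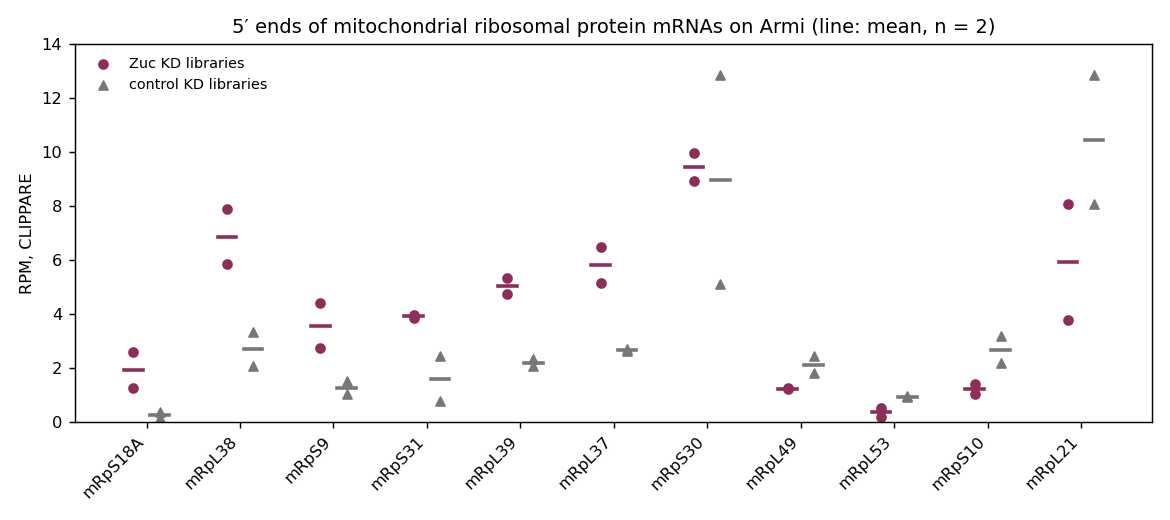
RPM in CLIPPARE of 11 members named in the text, with 1 point a library, Zuc KD as circles left of control KD as triangles, and the mean of 2 libraries as a line. Groups are apart for the genes other than mRpS30, whose control libraries lie at 5.12 and 12.8 RPM, and for mRpL21 the higher Zuc KD and the lower control library both stand at 8.06 RPM.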

How the data were processed

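The authors deposited RPM, 1 value a FlyBase transcript and column. The submitters' processing notes name cutadapt, STAR and the build dm6. Versions, the counting step, strand, multiply mapping reads and the use of random bases are not given in the sources used here. Whole reads were recovered from the RPM steps (100% of values, tolerance 0.1 of a read), which gave depth and exact 95% conditional binomial intervals. After 107 repeated lines were dropped, groups were taken from sample titles. Locus spans are from the tables; neighbouring genes are from a RefSeq table of Release 6. Loci in the tables follow another build, so no positions are given, and no sequence is shown.

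For the knockdown Piwi libraries the labels give an anti-Myc antibody but the protocol anti-Piwi, and the Yb KD library's genotype label names EGFP RNAi. The labels do not say that replicates came from separate cultures, so p-values measure the spread between these libraries.

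Zuc KD CLIPPARE was fitted with limma 3.58.1 (trend) in R 4.3.3 on log2(RPM + 1) of transcripts averaging 5 RPM or more, two-sided, with Benjamini-Hochberg adjustment over all of them. Alternatives were edgeR 4.0.16 and DESeq2 1.42.0 on recovered reads, pseudocounts of 0.1 and 5 RPM, other filters, centring, no trend, a replicate block and leaving out each library; the fit was tested on simulated data. Conditions with 1 column were described by values and ratios, with no test. A pseudocount of 1 RPM understates the change of low genes. Ranges of like RPM cover the interquartile range of the members. The rest used Python 3.11.15 (pandas 2.3.3, numpy 2.4.6, scipy 1.17.1, matplotlib 3.10.9).

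The members and gene lists were chosen with earlier results of these data known. Named were the 10 members of highest untreated Armi RPM, the 4 largest and 4 smallest changes of each comparison (averaging 5 RPM or more where a condition has 1 column), members that overlap a High-class gene, and the highest of the larger gene lists in untreated Armi iCLIP. Other members were named for counts of 5 or fewer. mRpS14, mRpL43, mRpL40 and the values of mRpL39 and mRpL37 in CLIPPARE were chosen after their values were seen.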

Additional observations from a re-analysis of the deposited data

How the results depend on the processing

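Of 98 values recomputed under other settings, 62 stayed within the spread or count limit and 36 moved. With pseudocounts of 0.1 and 5 RPM the median log2 ratio was 4.34 and 1.63 for D862A over WT, 4.19 and 1.60 for R949A over WT, 2.28 and 0.55 for Yb KD Armi iCLIP, and 2.42 and 0.87 for Yb KD Piwi, and with 5 RPM it was 0.12 for Zuc KD. With each library centred on its median it was 0.00231 for Zuc KD. For the other comparisons the median ratio of transcripts averaging 5 RPM or more was subtracted, which restates the difference from the table median. This gave 1.27, 1.19, −0.26 and −0.31 in the same order and 0.75 for untreated Piwi over Armi. Both Yb KD medians are thus below those of transcripts averaging 5 RPM or more, a level that most members did not reach. Over all transcripts with a symbol and a read the medians were 1.09 in Armi iCLIP and 1.74 in Piwi. The members' 1.32 lay above the first and their 1.69 below the second, so the sign in Armi iCLIP depends on the filter.

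A filter of 20 RPM gave 3.57 (D862A over WT), 3.44 (R949A over WT), 0.77 (Yb KD Armi iCLIP) and 0.07 (D862A over R949A), and kept no member for Zuc KD, Yb KD Piwi or untreated Piwi over Armi. Filters here are on the mean of both conditions. A member low in WT or control KD thus passes only if it is high in the other column, so medians after a filter do not test these ratios. Settings chosen after seeing the data were a filter of 5 RPM on the members, which gave 3.25 (D862A over WT), 3.28 (R949A over WT), 1.76 (Yb KD Armi iCLIP), 0.19 (D862A over R949A), −0.61 (untreated Piwi over Armi) and −0.29 (Zuc KD), and members that overlap no other gene, which gave 1.61 (Yb KD Armi iCLIP) and 0.16 (D862A over R949A). Leaving out mRpL21 and mRpS5 moved no median beyond the spread.

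For Zuc KD, 1 member was called lower when centred, with edgeR and with edgeR at 10 reads or more. The median was 0.13 with edgeR, 0.11 with DESeq2, and 0.13 and 0.11 with these at 10 reads or more. Without single libraries the median ranged between 0.12 and 0.43, members called higher between 0 and 1 and called lower between 0 and 1. Same-numbered libraries share only a number (correlation of deviations 0.0485 over 2 pairs); with the replicate block 0 members were called and 453 and 92 transcripts of the table were higher and lower, against 471 and 111 without it. Transcripts called lower numbered 549 with edgeR and 436 with DESeq2, against 111 with limma, and 233 were called higher with DESeq2.

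Few reads limit the WT and Piwi columns, where 48 and 59 members had 3 or fewer reads in WT and control KD Piwi, and the joined columns hide the spread between libraries.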

Other observations

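Members numbered within the bacterial series and those numbered above it were close by median. In D862A over WT the medians were 3.00 (42 genes) and 3.01 (30 genes), with summed ratios of 8.49 (7.55 to 9.58) and 12.6 (10.3 to 15.5). In R949A over WT the summed ratios were 7.41 (6.59 to 8.38) and 12.1 (9.89 to 14.9). mRpL21 and mRpS5, which had the highest WT levels, are both in the bacterial series. In Yb KD Armi iCLIP the medians were 1.35 and 1.25.

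Genes named for the small subunit had median log2 ratios of 3.24 in D862A and 2.94 in R949A over WT, and those named for the large subunit 2.79 and 2.86. In untreated cells the small-subunit names had a summed ratio of Piwi to Armi of 0.816 (0.638 to 1.05) and the large-subunit names one of 1.24 (1.02 to 1.502), with mRpS30 in the first group and mRpL21 in the second.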
